A study of Mus musculus with 6 samples.

Results

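The nuclei described here are those that the deposited annotation of a single-nuclei RNA sequencing (snRNA-seq) study of the mouse suprachiasmatic nuclei (SCN) names SCN Vip+ neurons. They were taken by this annotation alone, and they number 3468 of 22796 annotated nuclei. Of these, 3467 could be placed in a library by their barcode, while 1 carried a barcode found in both libraries of its stage. The Vip+ nuclei numbered 236 at GD17.5 (gestational day, GD), 1262 at PND2 (postnatal day, PND), 130 and 859 in replicates 1 and 2 of PND10, and 109 and 871 in replicates 1 and 2 of PND30.

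All samples were SCN of wild-type C57BL6/J mice, micro-dissected in the early light phase. The study followed the SCN from late gestation to an adult-like stage, with 1 library at GD17.5, 1 in the PND2 library, 2 at PND10 and 2 at PND30. Each stage was a pool of 10 animals, 5 male and 5 female. For PND10 and PND30 the library preparation and sequencing were repeated, and no source used here states whether different animals went into them, so that p-values measure the spread between libraries only. GD17.5 and PND2 have a single library each, so differences that involve them have no replicate check.

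The SCN hold the central circadian pacemaker of mammals. Neurons that make vasoactive intestinal peptide (VIP) lie mostly in the ventral core of the SCN, where retinal input arrives, and VIP released by them helps to keep SCN neurons in phase with each other. Neurons that make arginine vasopressin (Avp+) form the other large peptide class and lie mostly in the surrounding shell, while Cck+ and Nms+ neurons make cholecystokinin and neuromedin S.

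The matrix rows of the deposited counts (unique molecular identifiers, UMIs, per row and nucleus) carry no gene names here. Vip itself could therefore not be looked up, the label could not be checked against its marker, and each row is called a feature and left unnamed. Vip+ nuclei held between 1211842 and 6552989 UMIs per library. Across libraries, 2 barcodes were shared by Vip+ nuclei of different libraries. Levels are counts scaled to 1000000 UMIs (CPM) of the Vip+ nuclei of a library summed together.

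The share of Vip+ nuclei among SCN neurons was lowest before birth. At GD17.5 they made up 5.50% of the 4292 nuclei annotated as SCN neurons (95% exact Clopper-Pearson interval 4.84% to 6.22%, counting error only). At PND2 they made up 27.3% (26.0% to 28.6%), at PND10 27.3% and 35.2%, and at PND30 19.8% and 19.2%. PND10 had a mean of 31.2% ± 5.63 and PND30 a mean of 19.5% ± 0.445 (SD over 2 libraries each). The 2 stages did not overlap, but the exact two-sided permutation test over libraries gave p = 0.33, the smallest value that 2 against 2 libraries allow. With all neuronal nuclei as the denominator the stages overlapped, at 14.2% and 23.2% for PND10 and 16.6% and 17.7% for PND30. With all annotated nuclei they overlapped too, at 9.55% and 18.2% against 14.1% and 15.9%, and the mean was then lower at PND10. The nuclei that made up the rest changed in kind over the same time. At GD17.5 and PND2 the other SCN neurons were almost all of the early SCN neuron cluster, with 4048 and 3315 nuclei, and 8 and 46 nuclei were annotated Avp+. At PND10 Avp+ nuclei were 72.5% and 63.8% of the SCN neurons. At PND30 Cck+ nuclei had joined them, at 15.3% and 38.4%, and Nms+ nuclei at 1.27% and 14.5%. Shares of nuclei cannot tell a change in the number of Vip+ neurons from a change in the other clusters or in how the annotation drew its borders.

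**Figure D1:**
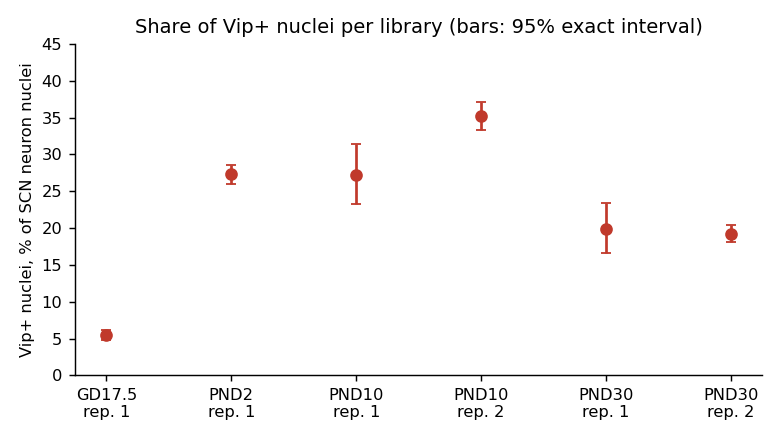
Vip+ nuclei as a percentage of all SCN neuron nuclei (y axis) in each of the 6 libraries (x axis). Points are libraries and bars are 95% exact intervals for counting error. The GD17.5 library lies at 5.50%, PND2 and both PND10 libraries lie between 27.3% and 35.2%, and both PND30 libraries lie near 19.5%.

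Vip+ nuclei and the other SCN neurons held similar numbers of UMIs within a library. Their median of UMIs per nucleus was 0.893 times that of the other SCN neurons at GD17.5, 0.917 times in the PND2 library, 1.01 and 1.00 times at PND10, and 1.07 times in both PND30 libraries. The ratio was below 1 in the libraries of GD17.5 and PND2 and above 1 in the other four, and its mean was not separated from 1 (mean log2 ratio -0.013, exact two-sided sign-flip permutation test over 6 libraries, p = 0.75, where 0.0312 is the smallest possible). Vip+ and Avp+ nuclei of PND2 differed more, since the 46 Avp+ nuclei had a median of 1488 UMIs against 4654 in Vip+ nuclei. When nuclei were thinned to 1500 UMIs, the median number of features detected per Vip+ nucleus was 1015 at GD17.5, 999 in the PND2 library, 1001 and 988 at PND10, and 1004 and 1003 at PND30. All 6 values therefore lay within a narrow range, and PND10 and PND30 gave p = 0.33 in the exact permutation test.

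Vip+ nuclei had mostly Vip+ nuclei as neighbours within every library. With equal numbers of Vip+ and other SCN neuron nuclei pooled, a random mixture would give 49.8% Vip+ nuclei among the 20 nearest neighbours of a Vip+ nucleus. The values were 97.6% at GD17.5, 90.7% in the PND2 library, 87.1% and 88.7% at PND10, and 95.6% and 95.1% at PND30. They describe the clustering and do not test it, because the annotation was made from the same counts. The spread among Vip+ nuclei, the mean squared distance of 109 nuclei to their library mean, was 0.925 times the GD17.5 value in the PND2 library, 0.844 and 0.825 times at PND10, and 0.785 and 0.843 times at PND30. With 10 in place of 30 principal components the PND2 ratio was 1.03 and the PND10 ratio 0.976, so that PND2 lay above GD17.5 rather than below it, while PND2 stayed above PND10.

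Vip+ nuclei resembled those of the neighbouring stage most. When each library was searched for its nearest Vip+ nuclei in the 5 others, 20% would come from each if the libraries were mixed. Vip+ nuclei of GD17.5 found 61.4% of their neighbours at PND2, 29.6% in the PND10 libraries together and 8.99% in the PND30 libraries. Vip+ nuclei of PND2 found 37.2% in the GD17.5 library, and 21.6% and 29.1% in the PND10 libraries, which is 50.7% in the latter together. In PND10 and PND30 libraries the other library of the same stage was the most frequent source, with 44.0% ± 4.20 (SD over the 4 libraries).

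The summed counts showed the same order. On a line from Vip+ nuclei of GD17.5 (0%) to those of PND30 replicate 2 (100%), over 5029 features and with equal nuclei and UMIs per library, the PND2 library lay at 32.9%. The PND10 libraries lay at 65.1% and 62.2% (63.7% ± 2.04, SD, n = 2), and PND30 replicate 1, which is no anchor, lay at 87.3%. The distance of these libraries from the line was 51.8% to 59.0% of its length, so that position on the line covers only a part of their differences. Avp+ neurons of PND10 lay at 42.5% and 35.0% and those of PND30 replicate 1 at 50.6%, below the Vip+ neurons of their libraries. The line was drawn between Vip+ libraries, so that another cluster need not move along it. Early SCN neurons of GD17.5 lay at 22.4%, where the Vip+ nuclei of that library are at 0% by construction. The distance from the line was 85.8% of its length for these early SCN neurons and 70.1% to 82.6% for the Avp+ neurons. The line thus covers less of these clusters than of the Vip+ libraries, and their positions do not order them by maturity. Without equalizing nuclei and UMIs, PND10 lay at 69.6% and PND30 replicate 1 at 96.9%.

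**Figure D2:**
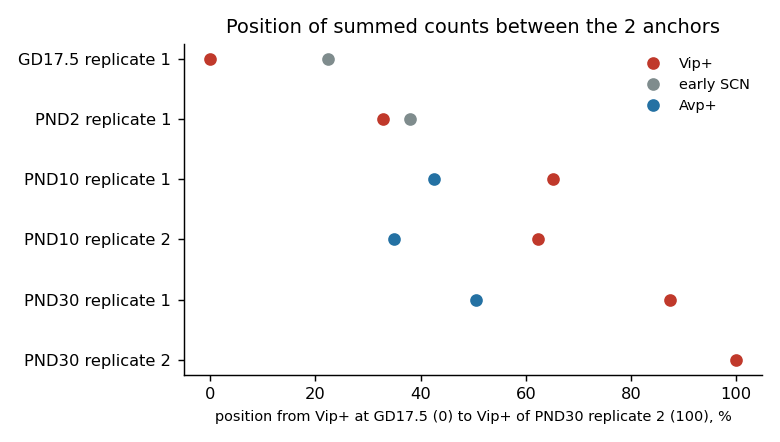
Position of summed counts (x axis, percent of the way from Vip+ nuclei at GD17.5 to those of PND30 replicate 2, which are 0% and 100% by construction) for each library (y axis). Colours are Vip+, early SCN and Avp+ neurons, with clusters left out where there were under 109 nuclei or where the 109 nuclei drawn held under 445159 UMIs, as for Avp+ neurons of PND30 replicate 2. Vip+ libraries are ordered by stage, at 32.9% for PND2 and 65.1% and 62.2% for PND10.

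Counts of features past a 2-fold difference were read against the counts between libraries of the same stage. In single pairs of libraries, 433 of 5029 features (8.61%) differed by 2-fold or more between GD17.5 and PND2, 515 and 516 between PND2 and a PND10 library, and 448 to 490 between a PND10 and a PND30 library. Between the 2 libraries of PND10 it was 199 (3.96%), and between those of PND30 it was 246 (4.89%). When every pair of libraries of the stages had to agree, 441 features (8.77%) differed between GD17.5 and PND10 and 660 (13.1%) between GD17.5 and PND30. Between PND2 and PND30 it was 557 (11.1%), and between PND2 and PND10 264 (5.25%). Each of these needed 2 pairs to agree. Between PND10 and PND30, where 4 pairs had to agree, 88 features (1.75%) remained. With 1 library of PND10 or PND30 left out, 2 pairs had to agree there and 205 to 230 features remained. With all Vip+ nuclei in place of 109 per library the counts were 166 between GD17.5 and PND2, 195 between PND2 and PND10 and 87 between PND10 and PND30, and 34 and 64 between libraries of the same stage. This setting adds nuclei and also drops the equal number of UMIs and changes the features considered, so that their parts in the lower counts cannot be told apart.

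Of 4719 features that reached 50 CPM in Vip+ nuclei of some library, 52 (1.1%) stood 4-fold or more above GD17.5 in each of the 4 PND10 and PND30 libraries, and 17 (0.36%) stood 4-fold or more below it. Of the 52, 35 were already 2-fold or more above GD17.5 at PND2, where 2.67% of the 4719 features were. Of the 17, 5 were 2-fold or more below it, where 0.848% of all were. Both sets were chosen against the GD17.5 library that these ratios also use, so that the counts are a description. The median log2 change of the 52 features from GD17.5 was 1.38 in the PND2 library, 2.58 and 2.60 at PND10, and 2.96 and 2.90 at PND30. In the other SCN neurons the same features changed by a median of 0.41 in the PND2 library, 0.91 and 0.10 at PND10, and 0.06 and 0.12 at PND30. For the 17 features the median log2 change was -0.62 at PND2 and between -2.49 and -3.44 in the later libraries, and in the other SCN neurons the median lay between -0.62 and -1.26. The other SCN neurons were almost all early SCN neurons before PND10 and other clusters later. Their changes, here and for the single features below, thus compare different clusters.

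The feature with the largest rise was also the most specific to Vip+ neurons over the 4 PND10 and PND30 libraries. In Vip+ nuclei it stood at 3.93 CPM at GD17.5 (5 UMIs), 14.5 CPM in the PND2 library, 153 and 174 CPM at PND10, and 328 and 412 CPM at PND30. In the other SCN neurons it stood at 1.42, 2.45, 14.7, 6.72, 9.57 and 14.1 CPM in the same order of libraries. Vip+ nuclei stood above the other SCN neurons in each library, an order that at PND10 and PND30 was favoured by the choice of the feature. After thinning to 1500 UMIs, 0.424% of Vip+ nuclei at GD17.5 held a UMI of it (95% exact interval 0.0107% to 2.34%), against 0.166% of glial and endothelial nuclei, so that it was not detectable above this background. At PND30 the share was 23.9% and 33.8% in Vip+ nuclei and 1.80% and 2.12% in glial and endothelial nuclei.

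The feature with the second largest rise had another pattern outside the Vip+ cluster. In Vip+ nuclei it stood at 9.44 CPM at GD17.5, 123 CPM in the PND2 library, 563 and 551 CPM at PND10, and 615 and 705 CPM at PND30. At GD17.5 it was 183 CPM in the other SCN neurons, 0.0515 times as high in Vip+ as in those, and at PND2 the levels were 123 CPM in Vip+ nuclei and 118 CPM in the others. By PND30 the order was inverted, with 31.9 and 53.2 CPM in the other SCN neurons.

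The feature with the largest fall was also lower at PND30 in the other SCN neurons and in glial and endothelial nuclei. It stood at 58.2 CPM at GD17.5, 20.4 in the PND2 library, 9.08 and 5.58 at PND10, and 1.19 and 1.18 at PND30, where the libraries held 2 and 4 UMIs of it. In the other SCN neurons it went from 42.2 CPM at GD17.5 to 3.73 and 5.14 CPM at PND30. The feature with the second largest fall went from 90.5 CPM at GD17.5 and 66.8 at PND2 to 11.6 and 13.9 CPM at PND10 and 4.17 and 3.84 CPM at PND30. In the other SCN neurons it had the opposite order, with 24.3 CPM at GD17.5 and 89.2 and 61.4 CPM at PND30.

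**Figure D3:**
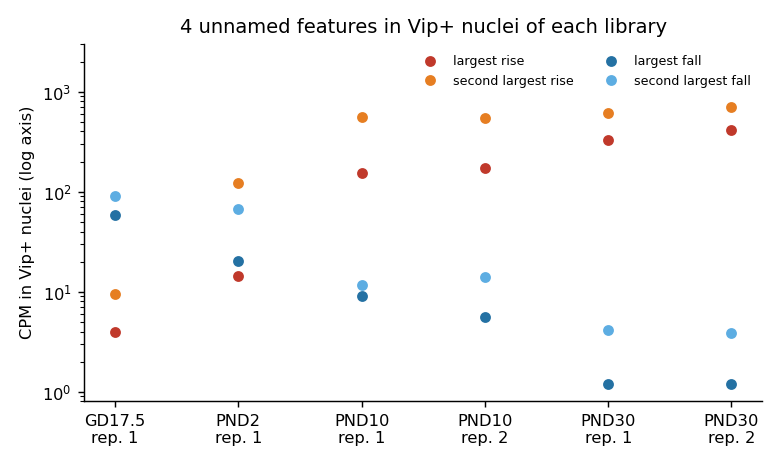
Level in Vip+ nuclei (y axis, CPM, log axis) of the 2 unnamed features with the largest rise and the 2 with the largest fall, in each of the 6 libraries (x axis). The rises reach 328 to 705 CPM at PND30, and the falls reach 1.18 to 4.17 CPM.

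What set Vip+ neurons apart from the other SCN neurons was not the same before PND10 and from PND10 on. These others were almost all early SCN neurons before PND10 and Avp+, Cck+ or Nms+ neurons later, so that the comparator differs. The 50 features with the highest ratio of Vip+ over the other SCN neurons were taken in PND30 replicate 2 and then read in the libraries that had not been used to choose them. They were 2-fold or more higher in Vip+ neurons for 50 of 50 in PND30 replicate 1, against 7.91% of the 3844 features that could have been chosen. At PND10 it was 48 (background 5.15%) and 49 (background 6.11%) of 50. At PND2 it was 7 of 50 (background 3.8%) and at GD17.5 6 of 50 (background 5.07%). The median log2 ratio of the 50 was 3.56 in PND30 replicate 1, 2.04 and 2.97 at PND10, -0.18 at PND2 and -0.77 at GD17.5. Features chosen in another PND10 or PND30 library gave 5 to 8 of 50 at GD17.5 and 6 to 10 of 50 at PND2.

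The levels behind these ratios moved in Vip+ nuclei and in the clusters they were compared with. The median of the 50 features in Vip+ nuclei was 29.9 CPM at GD17.5, 66.2 in the PND2 library, 151 and 154 at PND10, and 232 and 209 at PND30. Early SCN neurons held 82.4 CPM at GD17.5 and 60.3 CPM at PND2. The 46 Avp+ nuclei of PND2 held 35.7 CPM, below the 66.2 CPM of Vip+ nuclei in that library. Avp+ neurons held 42.3 and 21.8 CPM at PND10 and 16.4 and 16.1 CPM at PND30. Extra-SCN neurons, annotated only at PND10 and PND30, held 70.0 and 75.2 CPM at PND10 and 41.8 and 58.3 CPM at PND30. Thus Vip+ nuclei of GD17.5 held these features at the lower level of the 2 SCN clusters, and Vip+ neurons of PND10 and PND30 held them at the highest level among the neuron clusters measured, which the choice of the features fixed for PND30 replicate 2.

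The reverse choice gave a different picture. The 50 features that were highest in Vip+ nuclei of GD17.5 relative to other SCN neurons were 2-fold or more higher for 47 of 50 at PND2 (background 4.03%). At PND10 it was 7 (3.75%) and 10 (4.31%) of 50, and at PND30 14 (5.58%) and 10 (4.52%). They fell in Vip+ neurons but were not lost. Their median there was 156 CPM at GD17.5, 145 in the PND2 library, 106 and 130 at PND10, and 115 and 107 at PND30. Summed, they took 2.04% of Vip+ UMIs in the GD17.5 library and 1.70% in that of PND2. This share was lower in the PND10 libraries (1.26% and 1.39%) and lowest in those of PND30 (1.17% and 1.23%). Avp+ neurons held a median of 122 and 138 CPM at PND10 and 119 and 113 CPM at PND30, and Cck+ and Nms+ neurons of PND30 held 152 to 161 CPM. Extra-SCN neurons held 30.5 to 40.2 CPM, and early SCN neurons 17.7 CPM at GD17.5 and 38.5 CPM at PND2. The GD17.5 levels were fixed by the choice of the features, and PND2 is the independent reading against early SCN neurons. Against Avp+ neurons PND2 showed no such excess, with 154 CPM in the 46 Avp+ nuclei and 145 CPM in Vip+ nuclei. Feature by feature, the median log2 ratio of Vip+ over the other SCN neurons was 1.82 at PND2. It was -0.86 and -0.44 for the PND10 replicates and -1.09 and -0.95 for the PND30 replicates, and thus most of these features were lower in Vip+ than in the other SCN neurons of the later libraries. At PND30 the 50 features together took 1.17% and 1.23% of the UMIs of Vip+ neurons against 2.36% and 2.00% in Avp+ neurons. Of the 50 highest features of GD17.5, 23 were among the 50 of PND2, which is 46% of each list, where the list of PND2 takes 1.34% of the features that could have been chosen there. With the list of PND30 replicate 2, which takes 1.3% of them, 1 feature was shared, or 2% of each list, near that share.

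**Figure D4:**
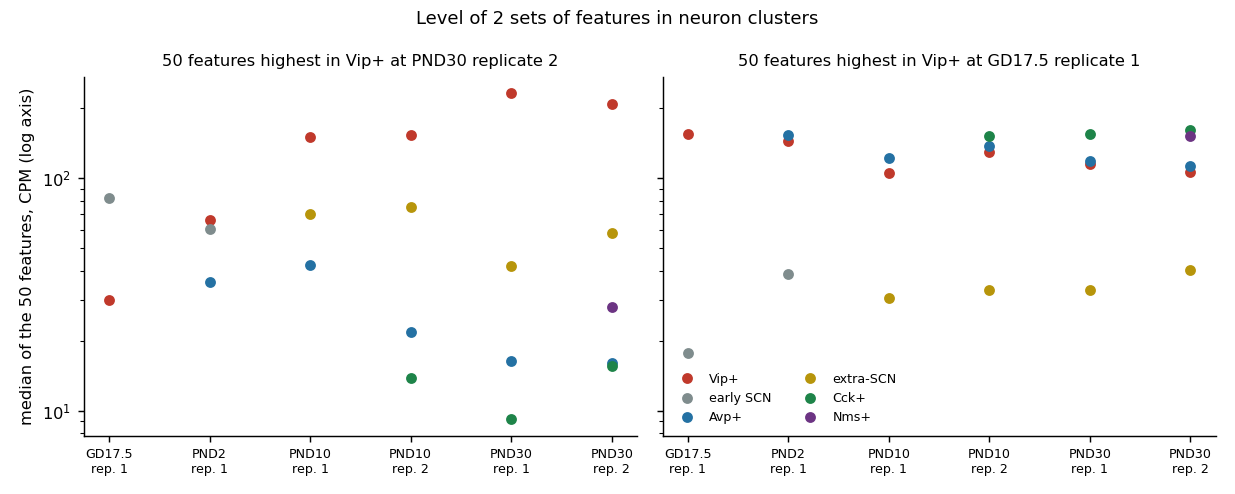
Median level (y axis, CPM, log axis) of 50 features in each neuron cluster and library (x axis, 6 libraries), with clusters of under 20 nuclei left out. Left, the features highest in Vip+ neurons of PND30 replicate 2, which stand at 29.9 CPM in Vip+ nuclei of GD17.5 and 232 and 209 CPM at PND30. Right, those highest in Vip+ nuclei of GD17.5, which Avp+ neurons of PND10 and PND30 hold at 113 to 138 CPM.

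Nuclei annotated Vip+ at GD17.5 and PND2 were then placed among the mature clusters. Each PND10 and PND30 library served in turn as a reference with equal numbers of Vip+, Avp+ and extra-SCN nuclei, and the clusters of the 20 nearest reference nuclei were counted. Vip+ nuclei of PND10 found Vip+ neighbours for 89.9% and 80.3%, and those of PND30 for 93.4% and 92.4%. Vip+ nuclei of PND2 found 40.1% ± 5.56 (SD over 4 reference libraries) Vip+, 52.3% Avp+ and 7.61% extra-SCN neighbours. Vip+ nuclei of GD17.5 found 29.4% ± 5.18 Vip+, 64.2% Avp+ and 6.39% extra-SCN neighbours. With the Euclidean in place of the cosine distance, the Vip+ share was 42.0% at GD17.5 and 50.5% at PND2. Early SCN neurons differed from both, with 89.3% extra-SCN neighbours at GD17.5 and 91.6% at PND2.

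The clusters offered in the reference matter for these shares. When PND30 replicate 2 was searched with Cck+ and Nms+ nuclei added, Vip+ nuclei of GD17.5 found 39.4% Cck+, 24.1% Avp+, 18.8% Vip+ and 9.23% Nms+ neighbours. Vip+ nuclei of PND2 found 29.0% Vip+, 28.2% Cck+, 16.5% Nms+ and 14.5% Avp+ neighbours. Vip+ nuclei of PND10 and of PND30 replicate 1 still found 73.4% to 93.6% Vip+ neighbours.

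Single nuclei gathered toward low or high shares of Vip+ neighbours, while others lay between. For the search per nucleus, PND10 replicate 2 was the reference, and the 50 features of PND30 replicate 2 were left out. It offered 400 nuclei of each of the Vip+, Avp+ and extra-SCN clusters. As Cck+ and Nms+ nuclei were not offered, nuclei nearest to those could count as mostly Avp+. At GD17.5, 78 of 236 Vip+ nuclei (33.1%, 95% exact interval 27.1% to 39.4%) had mostly Vip+ neighbours and 148 mostly Avp+ neighbours. At PND2, 616 of 1255 (49.1%, 46.3% to 51.9%) had mostly Vip+ and 601 mostly Avp+ neighbours. In PND10 replicate 1 and in both PND30 libraries, 94.6% to 97.1% of the Vip+ nuclei had mostly Vip+ neighbours. At GD17.5, 44.5% of the nuclei had under 10% Vip+ neighbours and 19.5% had 90% or more. At PND2 these shares were 30.8% and 29.6%. The other 3 reference libraries gave 23.3% to 38.1% of nuclei with mostly Vip+ neighbours at GD17.5 and 35.1% to 48.6% at PND2, and the leading cluster was the same for 82.8% to 88.5% of the nuclei.

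**Figure D5:**
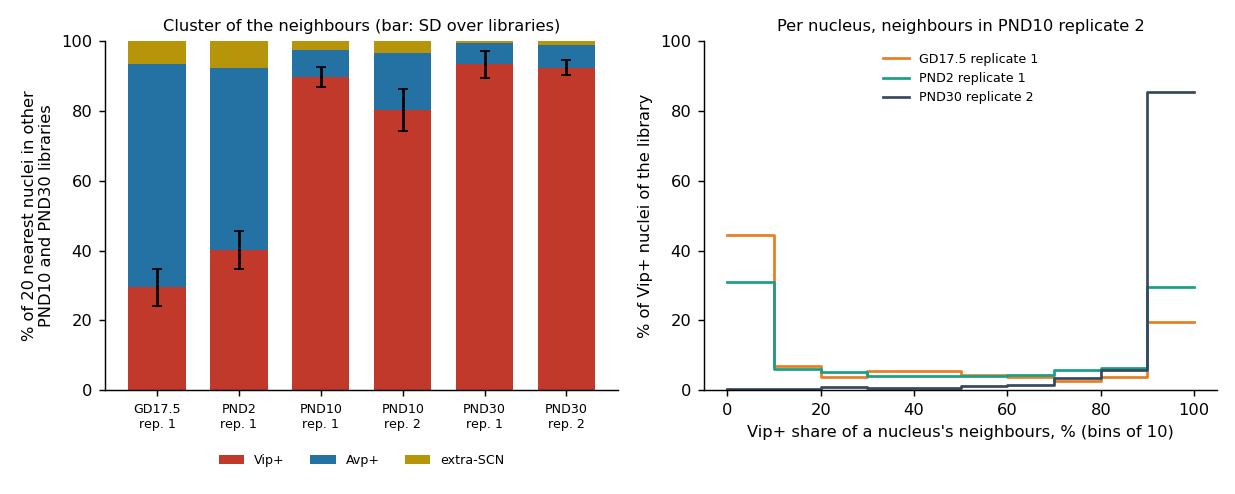
Left, mean share of Vip+, Avp+ and extra-SCN nuclei among the 20 nearest nuclei in other PND10 and PND30 libraries (y axis, percent) for Vip+ nuclei of each library (x axis), with the SD over reference libraries for the Vip+ share. Right, percent of Vip+ nuclei (y axis) by the Vip+ share of their neighbours in PND10 replicate 2 (x axis, bins of 10%). Vip+ nuclei of GD17.5 and PND2 gather at both ends, with 44.5% and 30.8% in the lowest bin, and those of PND30 replicate 2 in the highest bin.

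The 50 features that the search had not used differed between these nuclei. At GD17.5 their median was 51.0 CPM in the nuclei with mostly Vip+ neighbours and 17.0 CPM in those with mostly Avp+ neighbours, and 39 of 50 were 2-fold or more higher in the former (background 4.1% of 4313 features). At PND2 the medians were 102 and 25.5 CPM, and 45 of 50 were higher by as much (background 3.99%). None of the 50 was 2-fold lower in either library. The 2 kinds of nuclei differed little in depth, with medians of 4834 and 4443 UMIs at GD17.5 and 4670 and 4623 UMIs at PND2. Each comparison is between nuclei of a single library and has no replicate check. At GD17.5 the nuclei with mostly Vip+ neighbours still held the 50 features below the early SCN neurons, which stood at 82.4 CPM.

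The 2 leading features, both among those left out of the search, could be read in the same nuclei. At PND2 the feature with the largest rise stood at 25.7 CPM (95% exact Poisson interval 20.4 to 31.8, counting error only) in nuclei with mostly Vip+ neighbours and at 3.87 CPM (2.00 to 6.75) in those with mostly Avp+ neighbours. The feature with the second largest rise stood at 219 CPM (204 to 236) and 26.7 CPM (21.3 to 33.2). Both were therefore concentrated in the nuclei that resembled later Vip+ neurons. At GD17.5 the first had 1 and 3 UMIs in the 2 kinds of nuclei, and the second 7 and 5 UMIs, too few to tell them apart. The 2 falling features were alike in these nuclei at PND2, with 19.2 and 20.9 CPM for the first and 60.6 and 63.8 CPM for the second, inside each other's intervals.

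The early SCN neurons held few nuclei of this kind. By the same search, 8 of 3971 early SCN neurons at GD17.5 (0.201%, 95% exact interval 0.0870% to 0.397%) and 90 of 3278 at PND2 (2.75%, 2.21% to 3.36%) had mostly Vip+ neighbours. Adding them to the Vip+ nuclei gave 86 of 4207 Vip+ and early nuclei at GD17.5 (2.04%) and 706 of 4533 at PND2 (15.6%). Of these nuclei, 90.7% at GD17.5 and 87.3% at PND2 carried the Vip+ annotation. The annotation thus held most of the nuclei nearest to later Vip+ neurons at both stages, and beside them the 148 and 601 nuclei with mostly Avp+ neighbours. At GD17.5 and PND2 the label Vip+ is used here only as the name the annotation gives.

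From PND10 to PND30, the interval with 2 libraries at each end, UMIs were summed over Vip+ nuclei per library and tested with edgeR. Of 12484 features, 826 (6.62%) changed at an adjusted p under 0.05, with 343 higher and 483 lower at PND30. The median size of the log2 change among them was 1.05, with a median standard error of 0.20. With 109 nuclei per library edgeR called 384 features, and DESeq2 called 373 on all nuclei. The count depended on the libraries used. It was far lower when either PND10 library was left out and higher when either PND30 library was left out. The cause of this was not tested. In these fits the lone library of a stage is assumed to vary like the others.

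The change over this interval was compared between Vip+ and Avp+ neurons. The interaction of cluster and stage, with the library as a block, was called for 40 of 14691 features (0.272%) by edgeR at an adjusted p under 0.05, while 1293 were under 0.05 without adjustment. The change was higher in Vip+ than in Avp+ neurons for 15 of them and lower for 25, with a median size of the difference of 1.49 on the log2 scale. DESeq2 called 21. Without a single library the count was 1 (PND10 replicate 1), 20 (PND10 replicate 2), 283 (PND30 replicate 1) or 249 (PND30 replicate 2). A feature that is not called is not shown to change alike in both clusters.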

How the data were processed

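The authors isolated nuclei from SCN pooled per stage, made 10x Genomics libraries, and deposited raw UMI counts of each barcode, not normalized, with an annotation of retained nuclei. Doublets were removed before it was made. Per the submitters' processing notes, Cell Ranger 5.0.1, Seurat 4 and the mm10 genome were used. The stage marked by a barcode suffix in the annotation was taken from the libraries that held its barcodes, and nuclei were placed by barcode.

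For neighbours and spread, nuclei of at least 1500 UMIs were thinned to 1500, log-normalized to 10000 and reduced to 30 components of 2000 variable features, with 109 Vip+ nuclei per library and 10 draws averaged (3 for single nuclei). Position and fold counts used 109 nuclei and 445159 UMIs per library, log2(CPM + 1), and features of at least 50 CPM in any library. Fold changes on this scale understate low features. Glial and endothelial nuclei gave the background of detection.

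Summed counts were tested with edgeR 4.0.16 in R 4.3.3 (quasi-likelihood test, TMM, filterByExpr, Benjamini-Hochberg adjustment), with DESeq2 1.42.0 as an alternative. Python 3.11.15 with numpy 2.4.6, scipy 1.17.1 and scikit-learn 1.9.0 was used otherwise. The steps were tested on simulated data with known changes. Features described without a name were the 2 with the largest rise and the 2 with the largest fall among those past 4-fold in every pair, and the one most specific to Vip+ neurons. The members, feature rules and comparisons were chosen with earlier results of these data known.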

Additional observations from a re-analysis of the deposited data

Results flagged for a closer look

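The change from PND10 to PND30 differed between Vip+ and Avp+ neurons for 40 of 14691 features, by the edgeR test of the interaction of cluster and stage with Benjamini-Hochberg adjustment. This is a tested difference between clusters in the same libraries. The change was higher in Vip+ neurons for 15 features and lower for 25. The count fell to 1 or 20 when replicate 1 or 2 of PND10 was left out, and was 283 or 249 when replicate 1 or 2 of PND30 was left out, and 357 with no filter on low counts. What these features are was not analysed here, since the matrix rows carry no names.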

How the results depend on the processing

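Alternatives for the placement of nuclei among later clusters, for the 50 features and for the subset with mostly Vip+ later neighbours were chosen after seeing the data. Of 206 alternative values, 127 kept their direction and stayed within the replicate spread, counting interval or 1.5 times of the count, 75 moved further and 4 changed sign, the latter all for UMIs per nucleus.

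The share of Vip+ nuclei depended on the denominator. Of all annotated nuclei it was 4.80%, 22.7%, 13.9% and 15.03% from GD17.5 to PND30 in order. Of all neuronal nuclei it was 18.7% at PND10 and 17.1% at PND30, where PND10 was higher only through replicate 2, and over all nuclei the order of the means was inverted. Without the early cluster it was 96.7% at GD17.5 and 96.5% at PND2. Without a library it was 27.3% to 35.2% at PND10 and 19.2% to 19.8% at PND30. The log2 ratio of UMIs per nucleus was 0.36 against Avp+ neurons, and 0.037 against them in PND10 and PND30 libraries only, and -0.037 to 0.017 without a library. The ratio of features detected to GD17.5, without thinning, was 1.17 at PND10 and 1.34 at PND30, and at PND30 0.988 at 1000 and 0.990 at 2500 UMIs. Behind the values without thinning, replicates 1 and 2 had medians of 3365.5 and 2204 features at PND10 and 4444 and 1899 at PND30. GD17.5 had 2375.5, so replicate 1 of each stage lay above it and replicate 2 below. Their median UMIs per Vip+ nucleus also differed, at 8080.5 and 4372 for PND10 and 13026 and 3397 for PND30. Without a library the ratio with the main thinning was 0.973 to 0.986 at PND10 and 0.988 to 0.989 at PND30.

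The ratio of spread to GD17.5 was 1.03 at PND2 and 0.976 at PND10 with 10 components, 0.992 and 0.900 with 1000 features, and 0.877 at PND10 and 0.866 at PND30 with 1000 UMIs. Without a library it was 0.825 to 0.844 at PND10 and 0.785 to 0.843 at PND30. The share of Vip+ neighbours within a library with 1000 UMIs was 95.9%, 87.7%, 84.4% and 92.9% at the 4 stages in order. With 10 neighbours it was 92.6% at PND2, 89.3% at PND10 and 96.0% at PND30, with 10 components 89.2% at PND10 and 96.8% at PND30, and against Avp+ neurons 85.2% and 94.6%. Without a library it was 87.1% to 88.7% at PND10 and 95.1% to 95.6% at PND30.

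The position of PND2 was 30.3% with PND30 replicate 1 as the anchor, where PND30 replicate 2 lay at 84.7%. With features of at least 10 CPM the positions were 38.7%, 56.4% and 72.1% for PND2, PND10 and PND30, and with all nuclei 69.6% at PND10 and 96.9% at PND30. Without a library PND10 lay at 62.2% to 65.1%. The counts past the fold from GD17.5 to PND2, PND2 to PND10 and PND10 to PND30 were 40, 28 and 3 at 4-fold, 265, 174 and 58 with a pseudocount of 10, and 2447, 1219 and 413 with features of at least 10 CPM. Between libraries of 1 stage (PND10, PND30) they were 11 and 21 at 4-fold and 98 and 123 with this pseudocount. With features of at least 10 CPM they were 2028 (17.3%) and 2062 (17.6%) of 11743. The 2447 from GD17.5 to PND2 were 20.8% of these, not far above the libraries of 1 stage. The count from GD17.5 to PND2 was 166 with all nuclei. Without a library, which leaves fewer pairs to agree, it was 510 to 512 from PND2 to PND10 and 205 to 230 from PND10 to PND30.

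The Vip+ share of later neighbours with the Euclidean distance was 42.0% at GD17.5 and 50.5% at PND2, and without a reference library 27.9% to 31.04% and 38.4% to 42.5%. Nuclei with mostly Vip+ neighbours were 24.2% at GD17.5 and 39.9% at PND2 with PND10 replicate 1 as the reference, and 23.3% and 35.1% with PND30 replicate 1. Of the 50 features, 22% at GD17.5 and 30% at PND2 were 2-fold higher when only nuclei with mostly Vip+ neighbours were compared with the other SCN neurons.

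edgeR's count of 826 changed features was 0 to 1151 without a library, 384 with equal nuclei and 373 with DESeq2. The interaction count of 40 was 1 to 283 without a library, 357 with no filter and 21 with DESeq2. PND10 and PND30 share replicate numbers that the labels tie to nothing else. With the number as a replicate block the counts were 1390 and 406. Libraries with the same number deviated from the means of their stages with a correlation of 0.0764 over 12484 features, so the block was not taken as a pairing. Apart from construction as stated, the cause of these shifts was not tested. Depth limits low features. For single features, a ratio of Vip+ over the other SCN neurons was taken only where those others held over 3 counts.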

Other observations

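The number of features 2-fold or more apart between Vip+ nuclei and the other SCN neurons was uneven in direction before PND10. At GD17.5, 218 features were higher and 323 lower in Vip+ nuclei, and at PND2 162 and 237. They were counted among features of at least 50 CPM in Vip+ nuclei or in the other SCN neurons of the library. Of these, 4102 at GD17.5 and 3905 at PND2 also reached 50 CPM in Vip+ nuclei of some library. The lower counts include features outside that set, so no share is given for them. At PND10 the counts were 195 higher and 179 lower, and 223 and 182, and at PND30 307 and 265, and 253 and 223. The other SCN neurons were early neurons before PND10 and other clusters later, so that the comparator differs. The 10 most abundant features took 8.59% to 10.8% of the UMIs of Vip+ nuclei in the 6 libraries, with no order by stage.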
